A study of Mus musculus with 2 samples.

Results

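The 10 genes described here are Ccnd1, Ccnd2, Ccnd3, Ccne1, Cdk4, Cdk6, Cdc25a, E2f3, Wee1 and Chek1, cell cycle genes of the G1 phase and its checkpoints that are listed as targets of the microRNA miR-503. They were taken by symbol, and all 10 were found among the 27998 rows of the gene table. The values come from single-cell RNA sequencing of pancreatic islets, in which each captured transcript molecule is counted once from its 3′ end by a unique molecular identifier (UMI). There were 2 libraries, both from C57BL/6 mice at postnatal day 70: 1 from mice that carry a beta cell specific miR-503 transgene and 1 from wild type mice. The sources used here do not give the promoter of the transgene, the number of mice in each library or their sex. Each genotype is thus 1 library, so no difference below has a replicate check and no test was made. The intervals printed are 95% intervals that cover counting error only.

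D-type cyclins bind the kinases Cdk4 and Cdk6 early in G1 and start the phosphorylation of the retinoblastoma protein, which releases E2F factors such as E2f3. Cyclin E, the product of Ccne1, then carries the cell into S phase with Cdk2, and the phosphatase Cdc25a removes the inhibitory phosphates that the kinase Wee1 places, while Chek1 restrains Cdc25a when DNA is damaged. Adult mouse beta cells divide rarely, and their expansion after birth is known to need Cdk4 and cyclin D2. MicroRNAs pair through their seed, bases 2 to 8, with sites in the 3′ untranslated region (UTR) of a messenger RNA and lower its level or its translation. miR-503 is placed with the miR-15 and miR-16 family, whose members are known to hold cells in G1.

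The mature sequences are shown because their seeds, in capitals, decide which sites each microRNA can pair with. They were taken from RefSeq (GRCm38.p6), and miR-503-5p and miR-322-5p lie next to each other on chromosome X.
miR-503-5p: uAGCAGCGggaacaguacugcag
miR-322-5p: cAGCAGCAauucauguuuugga
miR-16-5p: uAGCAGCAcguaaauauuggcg
The seeds of miR-503-5p and miR-16-5p share their first 6 bases and differ in the last. The seed of miR-16-5p is also that of miR-15a-5p, miR-15b-5p, miR-195a-5p, miR-322-5p and miR-497a-5p. A full site for miR-503 (an 8mer) therefore reads CGCTGCTA in the UTR, and a full site for the miR-16 group reads TGCTGCTA. A 7mer-m8 lacks the final A (CGCTGCT or TGCTGCT), a 7mer-A1 (GCTGCTA) lacks the base that tells the seeds apart, and a 6mer (GCTGCT) lacks both. No row of the gene table was named for miR-503, and a mature microRNA has no poly(A) tail to be captured, so the level of miR-503 itself was not analysed here.

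The longest annotated 3′ UTR of each gene (GENCODE M21, GRCm38) was searched on the transcribed strand. Ccnd1 held 2 miR-503 8mers and Ccnd2 held 1, and none of the other genes held a miR-503 8mer or 7mer-m8. Their windows of 30 bases are printed with the site in capitals.
Ccnd1, chr7:144930866-144930895, minus strand: ccacggctcctctcatggCGCTGCTAccga
Ccnd1, chr7:144930789-144930818, minus strand: tatctttcacgttgttttCGCTGCTAttgg
Ccnd2, chr6:127128607-127128636, minus strand: tttattattattatttttCGCTGCTAagaa
Over 20685 genes with an annotated 3′ UTR, 0.459% held a miR-503 8mer and 3.92% a miR-503 7mer-m8. Among genes whose UTR was 80% to 120% as long as that of Ccnd1 (2676 bases) the share with a miR-503 8mer was 0.906%, and for Ccnd2 (5173 bases) it was 1.33%.

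The miR-16 group had 8mers in Ccnd2, Ccne1, Cdk6, Cdc25a, E2f3, Wee1 and Chek1, 1 in each. The share over all genes was 4.003% for this 8mer and 20.3% for its 7mer-m8. The windows below are those of Ccnd2, in which it lies close to the miR-503 8mer, of Ccne1 and E2f3, which were at least 1.5-fold lower in transgenic beta cells, and of Cdk6, which was at least 1.5-fold higher in transgenic alpha cells.
Ccnd2, chr6:127128537-127128566, minus strand: ctgtaatgtttcacggtgTGCTGCTAtttt
Ccne1, chr7:38098019-38098048, minus strand: gaactcttattttgtaagTGCTGCTAtgtc
E2f3, chr13:29907383-29907412, minus strand: tccctggtaccattgagtTGCTGCTActaa
Cdk6, chr5:3524527-3524556, plus strand: accccaagttgcacagggTGCTGCTAtctc
Ccnd3 held a miR-16 7mer-m8 and a 7mer-A1 in a UTR of 915 bases. Cdk4 held no 6mer in its UTR of 899 bases, where 34.2% of genes of like UTR length held at least 1. A match is a description of the letters and does not show that a site is used.

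**Figure D1:**
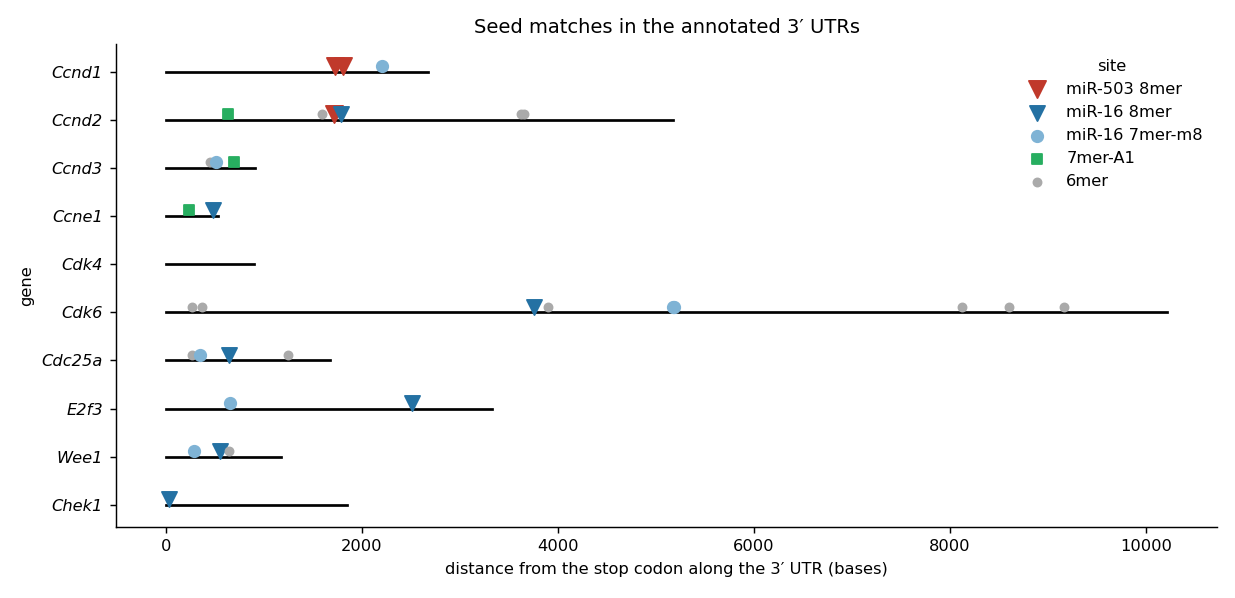
Seed matches of miR-503 and the miR-16 group in the longest annotated 3′ UTR of each gene, drawn to scale as distance from the stop codon in bases; symbols mark site types, and the 7mer-A1 and 6mer are shared by both seeds. The miR-503 8mers lie in Ccnd1 and Ccnd2, and the line of Cdk4 carries no symbol.

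The genes were read in beta, alpha and delta cells, defined by the share of a cell's UMIs from insulin (Ins1 and Ins2, at least 25%), glucagon (Gcg, at least 3%) or somatostatin (Sst, at least 2%). This gave 2625 transgenic and 3197 wild type beta cells, 686 and 495 alpha cells, and 250 and 145 delta cells, out of 3977 and 4339 cells kept. The classes matched their markers: all 10 beta markers, 9 and 8 of 10 alpha markers and 9 of 10 delta markers in each library were highest in their own class, and Lepr, a delta marker, was at 0 UMIs in delta cells. The libraries held 109243270 UMIs in the transgenic and 104677537 in the wild type matrix, shared 25 cell barcodes, and had medians of 10265 and 10368 UMIs outside hormone genes in beta cells. Transgenic and wild type beta cells differed in their median insulin share (60.5% and 50.4%), mitochondrial share (2.03% and 3.22%), share of cells with an Xist UMI (13.3% and 0.250%) and summed acinar marker level (158 and 51.8 counts per 1000000 UMIs outside hormone genes, CPM). Of the other marker lists, alpha markers summed to 5261 CPM in transgenic and 3491 CPM in wild type beta cells, and T cell markers to 6.40 and 0.255 CPM in them. Acinar markers summed to 148 CPM in transgenic and 76.2 CPM in wild type alpha cells, and to 199 CPM in transgenic and 93.5 CPM in wild type delta cells. An Xist UMI was found in 15.5% of transgenic and 0.606% of wild type alpha cells, and in 33 of 250 transgenic and 0 of 145 wild type delta cells. The part of these measures in the results below was not tested except where a value is given. Within 5 percentage points of the insulin threshold there were 9 transgenic and 102 wild type cells inside and 11 and 89 outside.

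Levels are given in this CPM, which leaves out the insulin genes that take most of a beta cell's UMIs. As a UMI stands for 1 molecule, levels of different genes were set beside each other without dividing by length. In transgenic beta cells Ccnd2 was at 1090.5 CPM, followed by Cdk4 at 146 CPM, Ccnd1 at 101 CPM and Ccnd3 at 40.04 CPM. In wild type beta cells Ccnd2 was at 1047 CPM, followed by Ccnd1 at 124.9 CPM, Cdk4 at 117 CPM and Ccnd3 at 54.2 CPM, so Cdk4 and Ccnd1 stood in the opposite order. Wee1 and Cdc25a came next, at 19.2 and 17.4 CPM in transgenic cells with overlapping intervals and at 23.0 and 17.7 CPM in wild type cells with separate ones. The other 4 genes were rare. Cdk6, Chek1, E2f3 and Ccne1 were at 2.33, 2.09, 1.23 and 1.16 CPM in transgenic beta cells, and at 1.87, 2.30, 2.097 and 2.24 CPM in wild type beta cells, where the intervals of all 4 overlap.

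**Figure D2:**
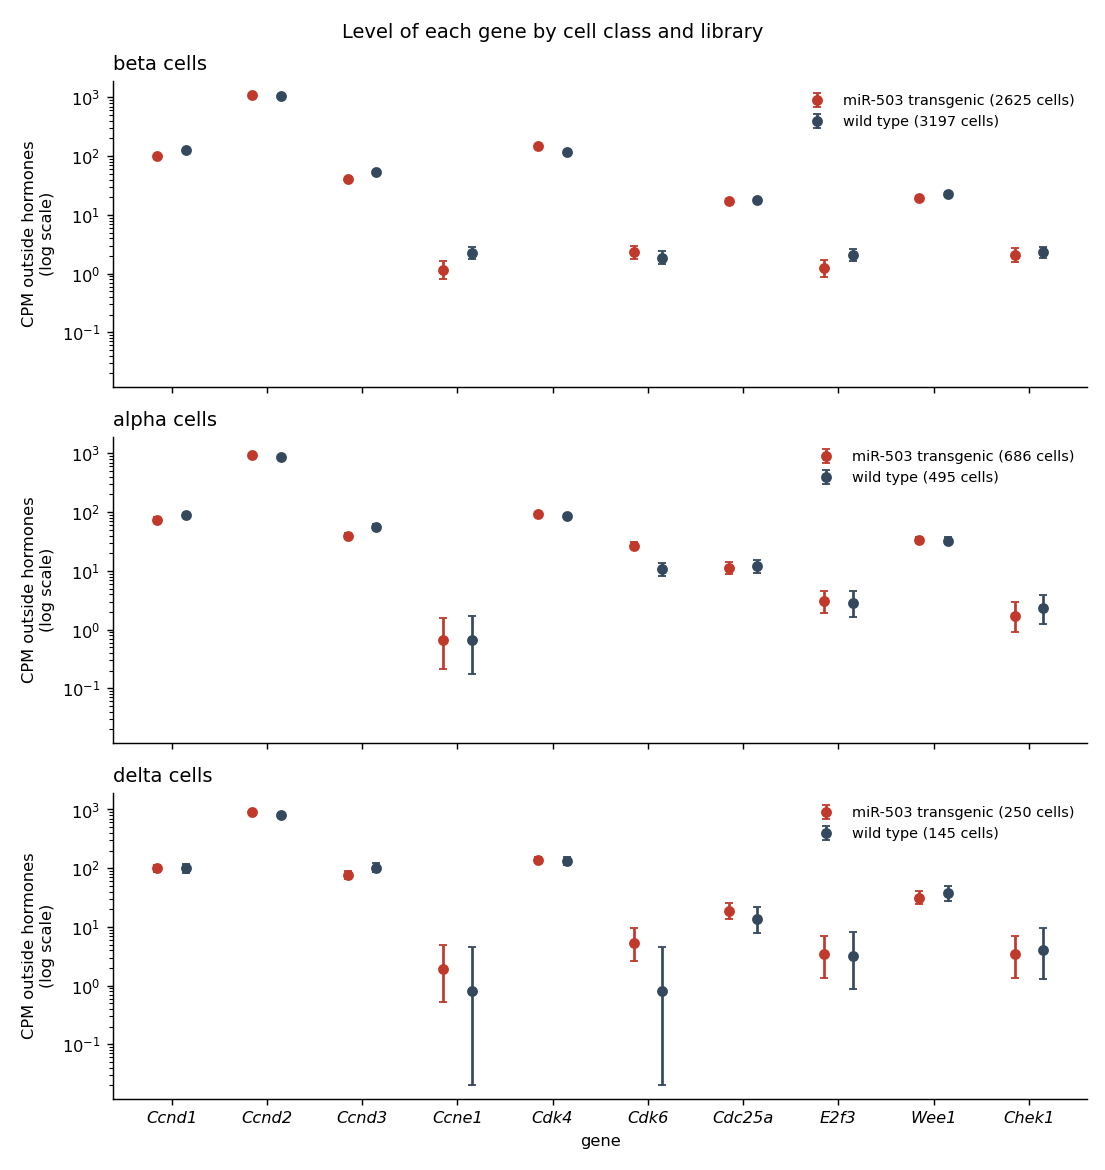
Level of each gene in CPM outside hormone genes (log axis) in beta, alpha and delta cells; red points are the transgenic and dark points the wild type library, and bars are exact Poisson 95% intervals. Ccnd2 is highest in every panel, and Cdk6 in alpha cells (26.8 CPM transgenic, 10.7 CPM wild type) stands above its level in beta cells.

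In beta cells 7 of the 10 genes were lower and 3 were higher in the transgenic library, where 52.7% of 12910 genes counted were lower. Ratios are log2 of transgenic over wild type after scaling by TMM factors fitted on all genes of the class. Genes with at least 50 UMIs over both libraries were counted, which all 10 passed in beta cells, 7 in alpha cells and 6 in delta cells. The median ratio of the 10 genes was −0.20, against −0.02 over all genes counted. A change of at least 1.5-fold was reached by Ccne1 and E2f3, both lower, where 4.38% of all genes were that much lower, and by no gene in the other direction, where 5.89% were that much higher. Both are rare. With bins of insulin share weighted equally E2f3 was at −0.03, and its call ended.

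In alpha cells, which the label does not name as cells of the transgene, 3 of 7 genes were lower, where 48.5% of 10258 genes were lower. Their median was 0.03, against 0.01 over all genes. None was 1.5-fold lower (3.25% of all genes) and Cdk6 was 1.5-fold higher (3.68%). In delta cells 3 of 6 genes were lower, where 49.7% of 7308 genes were lower, the median was 0.03 against 0.00, and none passed 1.5-fold in either direction (2.81% of genes lower, 3.30% higher). The difference of the ratios, beta minus alpha, had a median of −0.05 over the 7 genes counted in both, against −0.03 over 10179 genes.

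**Figure D3:**
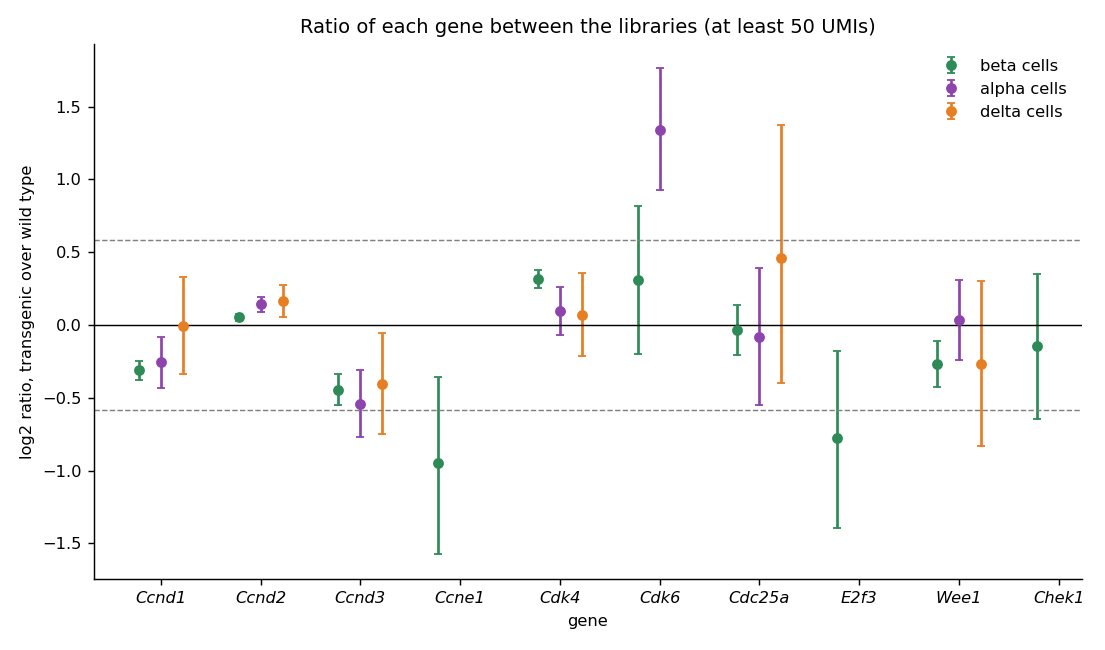
Log2 ratio between the libraries, transgenic over wild type, for each gene with at least 50 UMIs in beta, alpha and delta cells, with exact conditional binomial 95% intervals; dashed lines mark 1.5-fold. Ccnd3 lies below 0 in all 3 classes, Cdk4 lies above 0 with its interval off 0 in beta cells, and Cdk6 passes the upper line in alpha cells.

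Ccnd1 encodes cyclin D1 and lies on chromosome 7 from 144929931 to 144939925 of GRCm38, minus strand. It had 2954 UMIs in transgenic and 4408 UMIs in wild type beta cells, or 101 CPM (97.5 to 105) and 124.9 CPM (121 to 129). The intervals do not overlap, and the ratio was −0.31 (−0.38 to −0.24). In alpha cells it was at 74.8 and 89.8 CPM with a ratio of −0.26 (−0.43 to −0.09), so the beta minus alpha difference was −0.05 (−0.24 to 0.13). In delta cells it was at 99.0 CPM in the transgenic and 99.2 CPM in the wild type library. The gene with 2 miR-503 8mers was thus lower in transgenic alpha cells too, by an amount that counting error cannot tell from that in beta cells. The ratio in delta cells was −0.01 (−0.34 to 0.33), and at the stricter delta threshold it turned to 0.55.

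Ccnd2 encodes cyclin D2, the D cyclin most abundant here, and lies on chromosome 6 from 127125162 to 127152193, minus strand. It had 31865 UMIs in transgenic and 36941 UMIs in wild type beta cells, and at least 1 UMI in 99.5% and 99.1% of them. With each cell thinned to 3000 UMIs outside hormone genes, 93.3% of transgenic and 93.1% of wild type beta cells had a UMI. The shares were 92.6% and 88.7% in alpha, 91.6% and 85.5% in delta and 58.3% and 62.5% in endothelial cells. They were 10.9% and 29.7% in macrophages, whose median depth outside hormone genes was 9862 and 10455 UMIs. The ratio in beta cells was 0.05 (0.03 to 0.07), a difference of 1.04-fold in a gene that holds 1 miR-503 8mer and 1 miR-16 8mer. It was 0.14 (0.09 to 0.19) in alpha and 0.16 (0.05 to 0.28) in delta cells. The beta minus alpha difference was −0.09 (−0.15 to −0.04).

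Ccnd3 encodes cyclin D3 and lies on chromosome 17 from 47505051 to 47599691, plus strand. It had 1170 UMIs in transgenic and 1912 UMIs in wild type beta cells, or 40.04 CPM (37.8 to 42.4) and 54.2 CPM (51.8 to 56.7). It was lower in the transgenic library in all 3 classes: the ratio was −0.44 (−0.55 to −0.34) in beta, −0.54 (−0.77 to −0.31) in alpha and −0.41 (−0.75 to −0.06) in delta cells. The beta minus alpha difference was 0.10 (−0.15 to 0.34). Its UTR has no miR-503 8mer or 7mer-m8, and its ratio in beta cells was −0.23 in thinned cells.

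A UMI of Ccnd1 and a UMI of Ccnd3 were found together in 21.5% of transgenic and 29.6% of wild type beta cells. Neither was found in 28.4% and 20.3%, while Ccnd2 had a UMI in nearly every cell. By the Pearson correlation of log2(CPM + 1) over 10 profiles (beta, alpha, delta, macrophage and endothelial cells of both libraries), Ccnd1 was most like Rnf41, Slc44a1 and Ube2r2 (r = 0.97, 0.96 and 0.95). Ccnd2 was most like Msi2, Smyd2 and Map9 (r = 0.99, 0.99 and 0.98), and Ccnd3 most like Arid4b, Pcnp and Ssh1 (r = 0.99 for each). These are the highest values among 9883 genes with at least 500 UMIs, and the profiles of a library share its depth and free RNA.

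Cdk4 encodes the kinase partner of the D cyclins and lies on chromosome 10 from 127063534 to 127067920, plus strand. It had 4266 UMIs in transgenic and 4126 UMIs in wild type beta cells, or 146 CPM (142 to 150) and 117 CPM (113 to 121). It was higher in transgenic beta cells at 0.31 (0.25 to 0.38). In alpha cells the ratio was 0.09 (−0.07 to 0.26) on 91.7 and 86.2 CPM, and in delta cells 0.07 (−0.22 to 0.35) on 138 and 131 CPM. The beta minus alpha difference was 0.22 (0.04 to 0.39). Cdk4 is the gene of the 10 without a seed match. Scaled by total UMIs, which include insulin, every ratio in beta cells moves down by 0.31, and Cdk4 is then at 0.00 (−0.06 to 0.06).

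Cdk6 encodes the other D cyclin kinase and lies on chromosome 5 from 3341485 to 3531008, plus strand. It had 68 UMIs in transgenic and 66 UMIs in wild type beta cells, and its ratio of 0.31 (−0.20 to 0.82) had an interval that includes 0. Alpha cells held more of it, with 202 UMIs in the transgenic and 65 UMIs in the wild type library, or 26.8 CPM (23.2 to 30.8) and 10.7 CPM (8.22 to 13.6). That is a ratio of 1.34 (0.93 to 1.76), or 2.53-fold. The beta minus alpha difference was −1.03 (−1.66 to −0.40), and −0.31 with bins of insulin share weighted equally in beta cells. Delta cells had 11 UMIs in the transgenic and 1 UMI in the wild type library.

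The Cdk6 UMIs of alpha cells came from many cells: 143 of 686 transgenic cells (20.8%) and 51 of 495 wild type cells (10.3%) had at least 1, and no cell had more than 5. In thinned cells the shares were 6.42% (4.71 to 8.53) and 3.64% (2.17 to 5.69) in alpha cells, whose intervals overlap, against 0.690% and 0.634% in beta cells. The ratio of the thinned counts was 0.83 (0.03 to 1.68). Cdk6 in macrophages was at 101 CPM in the transgenic and 108 CPM in the wild type library. The 8 macrophage markers all had UMIs in alpha cells and summed to 128 and 129 CPM there, and the alpha cells with a Cdk6 UMI held 4 UMIs and 1 UMI of Ptprc, which marks leukocytes. Without cells that had at least 3 markers of macrophages, endothelial, B, T or stellate cells, a choice made after seeing the data, the ratio was 1.32 (0.90 to 1.76).

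Ccne1 encodes cyclin E1 and lies on chromosome 7 from 38097984 to 38107534, minus strand. It had 34 UMIs in transgenic and 79 UMIs in wild type beta cells, or 1.16 CPM (0.806 to 1.63) and 2.24 CPM (1.77 to 2.79). The intervals do not overlap, and the ratio was −0.95 (−1.58 to −0.35), or 1.93-fold lower. Alpha cells had 5 and 4 UMIs and delta cells 4 UMIs and 1 UMI, too few to be counted, so nothing can be said of whether the ratio differs between classes. Without dividing cells it was −1.05 (−1.69 to −0.43).

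Cdc25a encodes the phosphatase that frees Cdk2 to act and lies on chromosome 9 from 109875579 to 109893895, plus strand. It had 509 UMIs in transgenic and 625 UMIs in wild type beta cells, or 17.4 CPM (15.9 to 19.0) and 17.7 CPM (16.4 to 19.2). The ratio was −0.03 (−0.20 to 0.14), an interval that leaves out changes of 1.5-fold. It was −0.08 (−0.55 to 0.39) in alpha cells and 0.46 (−0.40 to 1.37) in delta cells. The value in delta cells rests on 39 and 17 UMIs and was −0.07 when cells that met 2 class rules were kept and 1.66 at the stricter delta threshold.

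E2f3 encodes an activating E2F factor and lies on chromosome 13 from 29906575 to 29986063, minus strand. It had 36 UMIs in transgenic and 74 UMIs in wild type beta cells, or 1.23 CPM (0.863 to 1.71) and 2.097 CPM (1.65 to 2.63). The ratio was −0.77 (−1.39 to −0.18), or 1.71-fold lower. It had 23 and 17 UMIs in alpha cells, at 3.05 and 2.79 CPM, and 7 and 4 UMIs in delta cells. The call ended under 2 alternatives: the ratio in beta cells was −0.58 (−1.26 to 0.08) in cells with a Y-linked and no Xist UMI, and −0.03 with the bins of insulin share described below weighted equally.

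Wee1 encodes the kinase that holds back cyclin-dependent kinases and lies on chromosome 7 from 110122046 to 110143286, plus strand. It had 561 UMIs in transgenic and 810 UMIs in wild type beta cells, or 19.2 CPM (17.6 to 20.9) and 23.0 CPM (21.4 to 24.6). The ratio was −0.26 (−0.42 to −0.11) in beta cells, 0.03 (−0.24 to 0.31) in alpha cells and −0.27 (−0.83 to 0.30) in delta cells. The beta minus alpha difference, −0.30 (−0.61 to 0.01), had an interval that includes 0. Chek1 encodes the DNA damage checkpoint kinase and lies on chromosome 9 from 36708482 to 36727065, minus strand. It had 61 UMIs in transgenic and 81 UMIs in wild type beta cells, a ratio of −0.14 (−0.65 to 0.35). Alpha cells had 13 transgenic and 14 wild type UMIs of Chek1 and delta cells 7 and 5.

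Part of the 3′ UTR is shared with an exon on the opposite strand for 4 of the genes: 818 bases with LTO1 for Ccnd1, 372 bases with Gm43126 for Ccnd2, 361 bases with Bysl for Ccnd3 and 641 bases with Tspan31 for Cdk4. Whether counting used the strand is not given in the sources used here, and without it reads of such a pair cannot be told apart.

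Because insulin takes a larger share of UMIs in transgenic beta cells, the genes were also read within bins of insulin share. From the lowest bin (25% to 40%) to the highest (70% and over) the bins held 61, 248, 934, 1246 and 136 transgenic cells and 524, 1012, 1280, 363 and 18 wild type cells. Ccnd3 was lower in transgenic cells in all 5 bins, with ratios of −0.56, −0.27, −0.40, −0.40 and −0.52, and the intervals of the 4 lower bins were off 0. Cdk4 was higher in all 5 bins, at 0.29, 0.20, 0.19, 0.20 and 0.33. Its intervals were off 0 in the 3 bins from 40% to 70%. Ccnd1 was at −0.19, −0.02, −0.29, −0.18 and −0.51, where the second bin had 131 CPM in transgenic and 128 CPM in wild type cells, with intervals off 0 in the bins from 50% to 70%. Ccnd2 was at −0.10, 0.07, 0.00, 0.05 and 0.66, the last on 1507 transgenic and 99 wild type UMIs.

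Levels of Cdk4, Ccnd1 and Wee1 also differed along the insulin share within each library, and those of E2f3 in the wild type library. The transgenic intervals of E2f3 overlap between all bins. From the first to the fourth bin Cdk4 was at 119, 138, 142 and 154 CPM in transgenic and 96.1, 116, 123 and 132 CPM in wild type cells. Ccnd1 was at 128, 131, 97.8 and 95.9 CPM in transgenic and 143, 128, 118 and 107 CPM in wild type cells. Wee1 was at 24.3, 24.6, 21.6 and 16.8 CPM in transgenic and 28.0, 22.3, 22.5 and 18.2 CPM in wild type cells. E2f3 was at 3.48, 2.18, 1.33 and 0.900 CPM in transgenic and 3.13, 2.63, 1.62 and 0.514 CPM in wild type cells. Within bins the ratios of Wee1 and E2f3 had intervals that include 0 wherever both could be given. With the bins weighted equally the ratio of Wee1 was −0.03 and that of E2f3 −0.03, against −0.26 and −0.77 over all beta cells. From the first to the fourth bin the ratio of E2f3 was 0.13, −0.32, −0.31 and 0.79, where both end values rest on few UMIs. The top bin held 0 E2f3 UMIs in both libraries, and 10 transgenic and 0 wild type UMIs of Wee1. The ratio of Ccne1 under equal weighting was −1.48, that of Cdk6 1.03, that of Ccnd1 −0.20, that of Ccnd3 −0.43 and that of Cdk4 0.23. Ccne1 had 0 transgenic and 18 wild type UMIs in the first bin, and 1 transgenic and 0 wild type UMIs in the top bin.

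**Figure D4:**
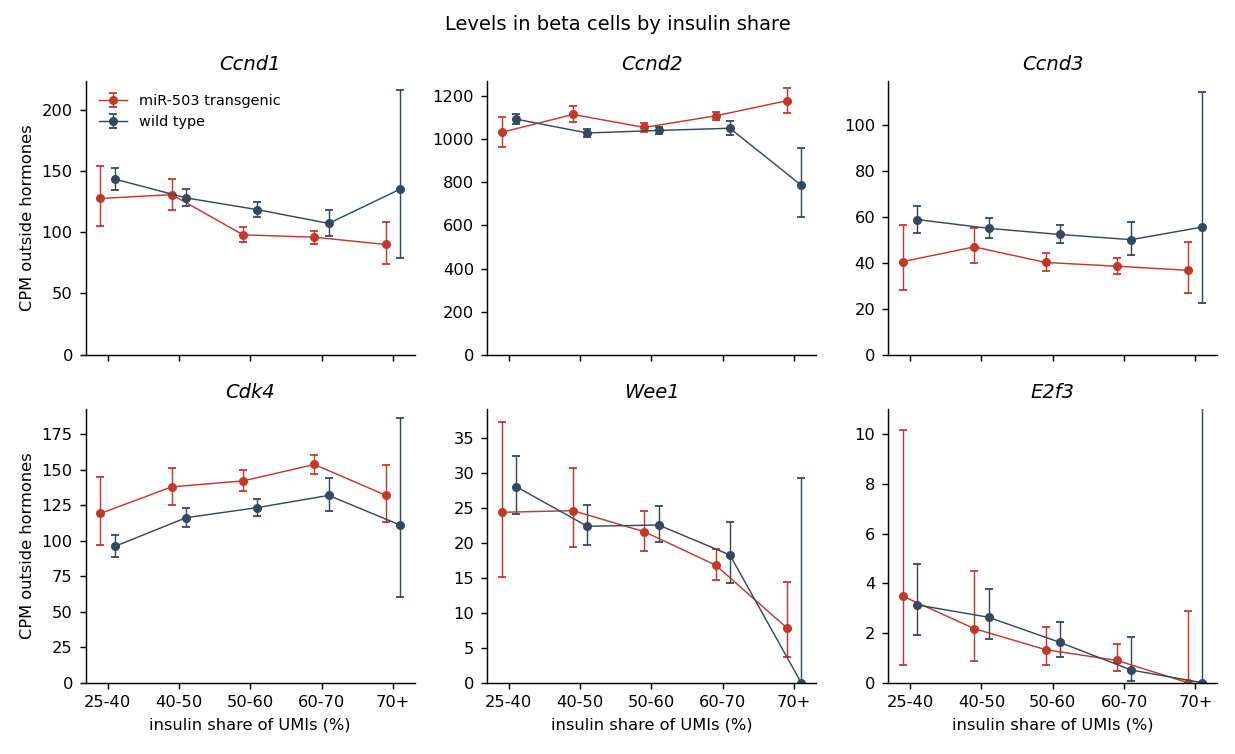
Levels of 6 genes in CPM outside hormone genes in beta cells binned by insulin share, transgenic in red and wild type in dark, with exact Poisson 95% intervals; the bin at 70% and over holds 18 wild type cells, and its wild type bar for E2f3 runs past the axis. Ccnd3 lies lower and Cdk4 higher in transgenic cells in each bin. Ccnd1, Wee1 and E2f3 stand lower at 60% to 70% than at 25% to 40% in both libraries, with transgenic intervals that overlap for Wee1 and E2f3.

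Dividing beta cells, those with at least 3 detected genes of a list of S and G2/M genes that holds none of the 10, numbered 56 of 2625 transgenic (2.13%, 1.62 to 2.76) and 18 of 3197 wild type cells (0.563%, 0.334 to 0.888). In the transgenic library Chek1 was at 10.9 CPM in dividing and 1.83 CPM in other beta cells, 5.97-fold higher (2.58 to 12.2). E2f3 was at 7.28 and 1.06 CPM, 6.89-fold higher (2.35 to 16.8), and Cdc25a at 29.1 and 17.1 CPM, 1.71-fold higher (1.08 to 2.57). Dividing cells thus held 14.8% of the Chek1 UMIs and 16.7% of the E2f3 UMIs of transgenic beta cells. The D cyclins were no higher there. Ccnd2 was at 841 CPM in dividing and 1098 CPM in other transgenic beta cells, a fold of 0.766 (0.710 to 0.826). Ccnd1 was at 72.8 and 102 CPM, a fold of 0.715 (0.544 to 0.923). Ccnd3, at 32.8 and 40.3 CPM, had a fold of 0.814 (0.534 to 1.19).

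In the wild type library the 18 dividing cells held 2 Chek1 UMIs and 1 E2f3 UMI, too few to set a level. Cdk4 was at 188 CPM in dividing and 116 CPM in other wild type beta cells, 1.62-fold higher (1.19 to 2.15), and at 158 and 146 CPM in the transgenic library, where the interval (0.903 to 1.29) includes 1. Ccnd2 was at 1133 and 1046 CPM in wild type cells, Ccnd1 at 136 and 125 CPM and Ccnd3 at 64.0 and 54.1 CPM. The fold intervals of these D cyclins include 1. Wee1 was at 48.0 and 22.8 CPM in wild type cells, 2.11-fold higher (1.08 to 3.70) on 12 UMIs in dividing cells. In the transgenic library the fold of Wee1 was 0.882 (0.479 to 1.49). Without dividing cells the ratio of E2f3 was −0.98 (−1.64 to −0.35), that of Cdk4 0.32 and that of Ccnd1 −0.29.

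Around these genes, a list of 38 other G1/S genes, chosen in part with earlier results of these data known, had 34 members counted in beta cells. Of these 19 were higher and 15 lower in the transgenic library, with a median of 0.08, where 52.7% of all genes were lower. Past 1.5-fold there were 5 higher (Myc, Rbl1, Foxm1, Cdc25b and Ccnh), where 5.89% of all genes were, and 1 lower (Skp2), where 4.38% were. Foxm1 and Skp2 were named after their values were seen. In alpha cells 20 of 24 were higher and 4 lower, where 48.5% of all genes were lower, with Cdkn1c and Myc past 1.5-fold higher (3.68% of all genes). In delta cells 7 of 15 were higher and 8 lower, near the 49.7% of all genes that were lower, with Cdkn2b and Cks1b past 1.5-fold higher (3.30% of all genes). These alpha and delta cell genes were named after their values were seen.

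Of the inhibitors of cyclin-dependent kinases, 4 were lower and 3 higher in transgenic beta cells, near the 52.7% of all genes that were lower. Cdkn1a, which encodes p21, was at −0.28 (−0.34 to −0.23) on 4860 transgenic and 7101 wild type UMIs. Cdkn2b, encoding p15, was at −0.32 (−0.45 to −0.19) and Cdkn2a, encoding p16 and p19ARF, at −0.52 (−0.93 to −0.11). Cdkn2d, another inhibitor of Cdk4 and Cdk6, was higher at 0.55 (0.41 to 0.68) on 1002 and 824 UMIs, and Cdkn1b, encoding p27, at 0.19 (0.08 to 0.30). The intervals of Cdkn1c at −0.26 and Cdkn2c at 0.09 include 0. In alpha cells, where 48.5% of all genes were lower, every inhibitor counted was higher. Cdkn1a was at 0.23 (0.15 to 0.31), Cdkn2b at 0.53 (0.27 to 0.80) and Cdkn2d at 0.51 (0.14 to 0.89) there. Cdkn1c was at 1.27 (0.66 to 1.92), and the intervals of Cdkn1b at 0.25 and Cdkn2c at 0.06 include 0. Cdkn2a had too few UMIs in alpha cells to be counted.

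Of the rest of the list, and among genes with at least 100 UMIs over both libraries, Myc, a transcription factor that drives growth, was highest at 1.08 (0.79 to 1.38) on 264 transgenic and 150 wild type UMIs. It was followed by Rbl1 (p107, a relative of the retinoblastoma protein) at 0.88, Cdc25b (a phosphatase like Cdc25a) at 0.65 and Ccnh (a subunit of the kinase that activates cyclin-dependent kinases) at 0.61. In alpha cells Myc was at 0.62 (0.13 to 1.12). The lowest among genes with at least 100 UMIs were Fbxw7, which marks cyclin E for destruction, at −0.41 (−0.51 to −0.30), Rb1, the retinoblastoma gene, at −0.25, E2f4, a repressive E2F factor, at −0.22, and Pkmyt1, a kinase related to Wee1, at −0.16 with an interval that includes 0.

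To set the sites of the 10 genes beside those of other genes, all counted genes were grouped by the strongest site in their UTR. In beta cells the 66 genes with a miR-503 8mer, Ccnd1 and Ccnd2 among them, had a median ratio of −0.16. Of these, 74.2% were lower in the transgenic library, where 52.7% of all genes counted were lower. The 542 genes with a miR-503 7mer-m8 and no 8mer had a median of −0.09, the 525 with a miR-16 8mer −0.08 and the 6558 with no site 0.03. Their shares of lower genes were 65.9%, 64.2% and 45.9%. The same site types held fewer counted genes in the other classes, so the sets of genes differ between classes. In alpha cells they held 55, 447, 444 and 5299 genes, with medians of −0.07, −0.03, −0.01 and 0.03. In delta cells they held 36, 313, 323 and 3798 genes, with medians of −0.03, −0.01, −0.03 and 0.02. Of the genes with a miR-503 8mer, 61.8% of 55 were lower in alpha cells, where 48.5% of all genes counted were. In delta cells 55.6% of 36 were lower, where 49.7% of all genes counted were. The remaining groups in beta cells had medians of −0.06 (miR-16 7mer-m8 and no 8mer), −0.06 (7mer-A1 only) and −0.05 (6mer only). UTR length also differed between these groups: its median was 2343 bases with a miR-503 8mer and 672 bases with no site among genes counted in beta cells, and its part in the medians was not tested. Within the group of miR-503 8mers the quartiles in beta cells were −0.30 and 0.00, so Ccnd1 at −0.31 lay just below its lower quartile and Ccnd2 at 0.05 above its upper quartile.

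**Figure D5:**
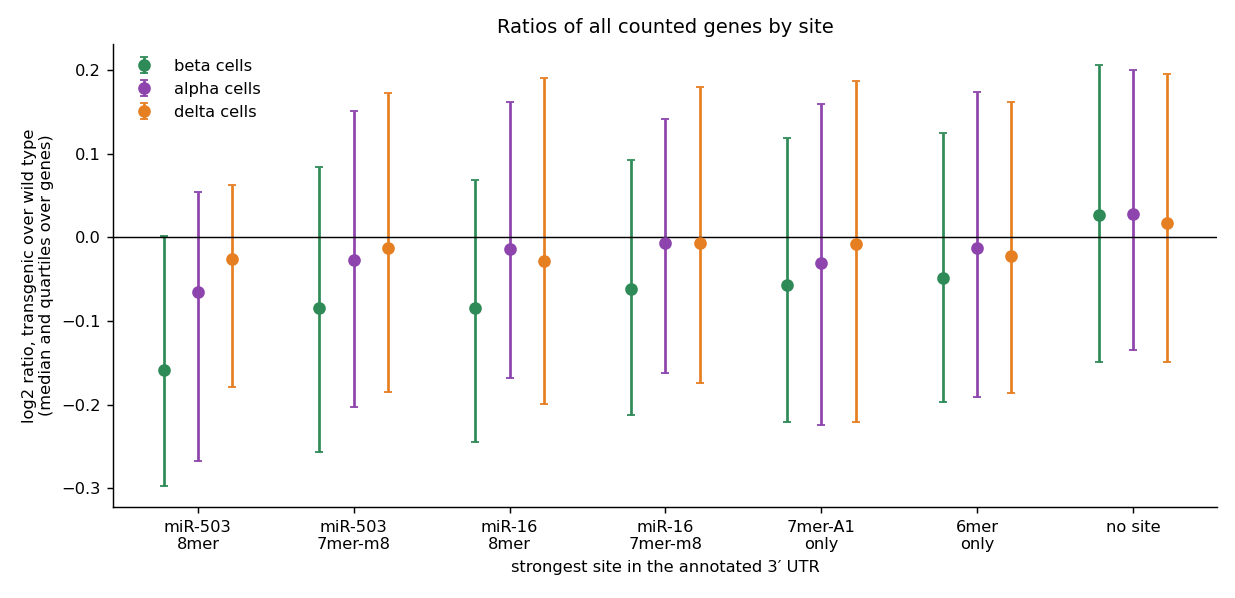
Median log2 ratio between the libraries, transgenic over wild type, with quartiles as bars, for all genes with at least 50 UMIs grouped by the strongest seed match in the longest annotated 3′ UTR, in beta, alpha and delta cells. The median in beta cells is lowest for miR-503 8mers (−0.16) and above 0 with no site (0.03).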

How the data were processed

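Per the labels' protocols, islets were dissociated with trypsin and EDTA and cells captured with 10x Chromium 3′ reagents; per the submitters' processing notes, Cell Ranger 2.1.0, STAR 2.5.1b and mm10 were used. The deposited values are raw UMI counts for each gene in each cell, without normalization. Whether counting used the strand, the annotation release and the barcode filter are not given in the sources used here.

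Cells had at least 500 genes, at least 1000 UMIs and at most 10% mitochondrial UMIs, which removed 15 transgenic and 20 wild type barcodes. Scrublet (scanpy 1.11.5) marked 0.410% and 0.111% of barcodes by its own threshold, so the top 4% of scores, 166 and 181 cells, were removed instead. Cells meeting more than 1 class rule (101 and 62) were left out, and 315 and 440 met none. The hormone genes outside CPM are Ins1, Ins2, Gcg, Sst, Ppy, Pyy and Iapp. UMIs were summed per class and library and scaled by TMM (edgeR 4.0.16). Intervals are exact conditional binomial for ratios, exact Poisson for levels, Clopper-Pearson for shares and delta-method for differences between classes. The ratio, interval and scaling were tested on simulated counts with 200 changed genes. No test across samples was possible, since each group is 1 library. Macrophages and endothelial cells had at least 4 of their markers.

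Named besides the 10 genes are all Cdkn inhibitors and, of the other G1/S genes with at least 100 UMIs, the 4 highest and 4 lowest ratios in beta cells, and for each D cyclin the 3 genes of most similar profile. The members and lists were chosen with earlier results of these data known. The closing section gives the alternatives tried.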

Additional observations from a re-analysis of the deposited data

How the results depend on the processing

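The 4 summaries and the ratios of single genes were recomputed under 14 alternatives, of which leaving out cells with markers of other types was chosen after seeing the data. Among the genes past 1.5-fold, Ccne1, E2f3, Myc, Rbl1, Cdc25b and Ccnh in beta cells and Cdk6 in alpha cells were recomputed, and none changed sign. Others of the 10 genes passed it under alternatives. In beta cells Ccnd1 (−0.62) and Ccnd3 (−0.75) did when scaled by total UMIs, and Chek1 (−0.62) in thinned cells. Cdk6 (1.03) did with insulin bins weighted equally. In delta cells Ccnd3 (−0.66, thinned) and Cdc25a (1.66, stricter threshold) did. Signs changed under some alternative for Ccnd2, Cdk6, Cdc25a and Chek1 in beta cells. They did for Cdc25a and Wee1 in alpha and for Ccnd1 and Cdc25a in delta cells. E2f3 lost its call with insulin bins weighted equally (−0.03) and in cells with a Y-linked and no Xist UMI (−0.58), and Rbl1, Cdc25b and Ccnh lost theirs when scaled by total UMIs (0.57, 0.34 and 0.29) and under some other alternatives. The other genes of the G1/S list past 1.5-fold were not recomputed. Scaled by total UMIs, the median of the 10 genes in beta cells was −0.52, 1 of the 10 was higher, and the beta minus alpha median was −0.34. Ratios of every gene move by −0.31 in beta and −0.03 in alpha and delta cells under that scaling, since insulin takes a larger share in transgenic beta cells. Counting genes with at least 10 UMIs, 5 genes were higher in delta cells in place of 3. The other 90 summary values did not move by a wide measure. A median had to leave the median limits of its genes' own counting intervals, and a count had to change by over 1.5 times. These limits are not an interval of the median itself, so single genes can shift within them. With insulin bins weighted equally Wee1 and E2f3 were at −0.03 in beta cells, and Ccne1 was at −1.48 and Cdk6 at 1.03. Among the values of single genes 50 of 617 moved outside their counting intervals.

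Depth limits Ccne1, E2f3, Cdk6 and Chek1 in beta cells, which rest on 34 to 81 UMIs in a library, and all of delta cells. The alternative with insulin bins weighted equally gives the 18 wild type cells of the top bin as much weight as 1280 cells. Leaving out a library was not done, as each group is 1 library. No paired analysis was possible because the groups share a single replicate number and no test was made.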
